A study of Mus musculus with 7 samples.

Results

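The genes described here are 43 developmental transcription factors that lie outside the Hox clusters. They are members of the Dlx, Pax, Lhx, Gata, Tbx, Nkx and Sox families, with Six2, Six3, Six6, Isl1, Myod1, Neurog1, Neurog2 and Foxa2. Most of these families have further genes that are not among the 43. The 43 were chosen by name, and all were found among 21631 protein-coding RefSeq genes on the autosomes and X of mm10 (GRCm38). Around each gene, sites of replication initiation were taken from short nascent strand sequencing, which reads the size-selected DNA strands that resist λ-exonuclease because they begin with an RNA primer. The labels name the cells as mouse embryonic stem cells (mESCs), which DNA libraries cannot check. WT libraries were untreated, with WT 1 from a wild-type mESC line that was submitted earlier and WT 2 from uninduced TetO-CDC6 mESCs, a line derived from a mouse in which doxycycline switches on CDC6. APH libraries came from TetO-CDC6 mESCs given 0.5 µM aphidicolin, a DNA polymerase inhibitor, for 2.5 h. CDC6 libraries came from TetO-CDC6 mESCs given 1 µg/ml doxycycline for 30 h, and whether CDC6 rose cannot be seen in these files. Each condition had 2 libraries and 1 deposited list of origins.

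The products of these genes bind DNA and set cell identity: they pattern the forebrain, eye, kidney, heart, limb and endoderm or drive muscle and nerve cell formation. In embryonic stem cells most of them are known to be held silent by polycomb repressor complexes at promoters rich in CpG dinucleotides, with marks of activation and repression on the same chromatin. Replication origins in mammals have no fixed sequence; they are known to lie often at promoters and CpG-rich DNA, and CDC6 helps to load the replicative helicase at them.

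Several properties of the lists bear on every result. The WT, APH and CDC6 lists held 20178, 31653 and 31384 origins, and the peaks called by MACS in single libraries numbered 94747 in WT 1, 81056 in WT 2, 74540 and 71435 in APH and, in CDC6, 72384 and 82071. The files hold no read numbers, so the depth is unknown and the number of listed sites limits the precision. Of the second lists deposited for the libraries, some went against their labels. The one labelled APH 1 held all rows of the WT list, and the one labelled CDC6 1 held all rows of the APH list. The one labelled CDC6 2 held all rows of the CDC6 list, as its label says, and those labelled WT 1, WT 2 and APH 2 held none of any list. The MACS peaks went with their labels: between 99.4% and 100% of the origins in a condition list had a peak in each library carrying its name. These 2 kinds of file were therefore used as labelled and the second lists were left aside. The labels do not state separate cultures, and p-values therefore reflect only how far these libraries differ, which may be technical.

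Most of these genes had an origin close by in every condition. Within the gene body and 5 kb on either side, 36 of 43 had an origin in the WT list, 37 in the APH list and 40 in the CDC6 list, against 48.1%, 53.6% and 58.5% of all protein-coding genes. In all 3 lists 33 of the genes had one, against 41.6% of all genes. Lhx9 and Sox17, of gonad and endoderm, had one in no list, as did 34.8% of all genes. Within 1 kb of a gene end, meaning either end of the RefSeq gene, 19 had a WT origin, 21 an APH origin and 30 a CDC6 origin, against 32.2%, 33.3% and 40.6% of all genes. Gene-end origins were in all 3 lists for 16 of the genes (27.3% of all genes) and in no list for 13 (55.9% of all genes). There is 1 list per condition, so these counts have no replicate error. The genes are short, with a median length of 9693 bp against 17329 bp for all genes. Their windows held 4.06 WT, 4.61 APH and 5.78 CDC6 origins per 100 kb, against 1.27, 1.64 and 1.84 over the windows of all genes. These are all origins over all window bases, so long genes weigh most, and gene ends and flanks fill more of a short window. What part gene length has in the difference was not tested. Dlx1 and Dlx2, and Dlx5 and Dlx6, are neighbours whose windows touch, so their sites are not independent.

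**Figure D1:**
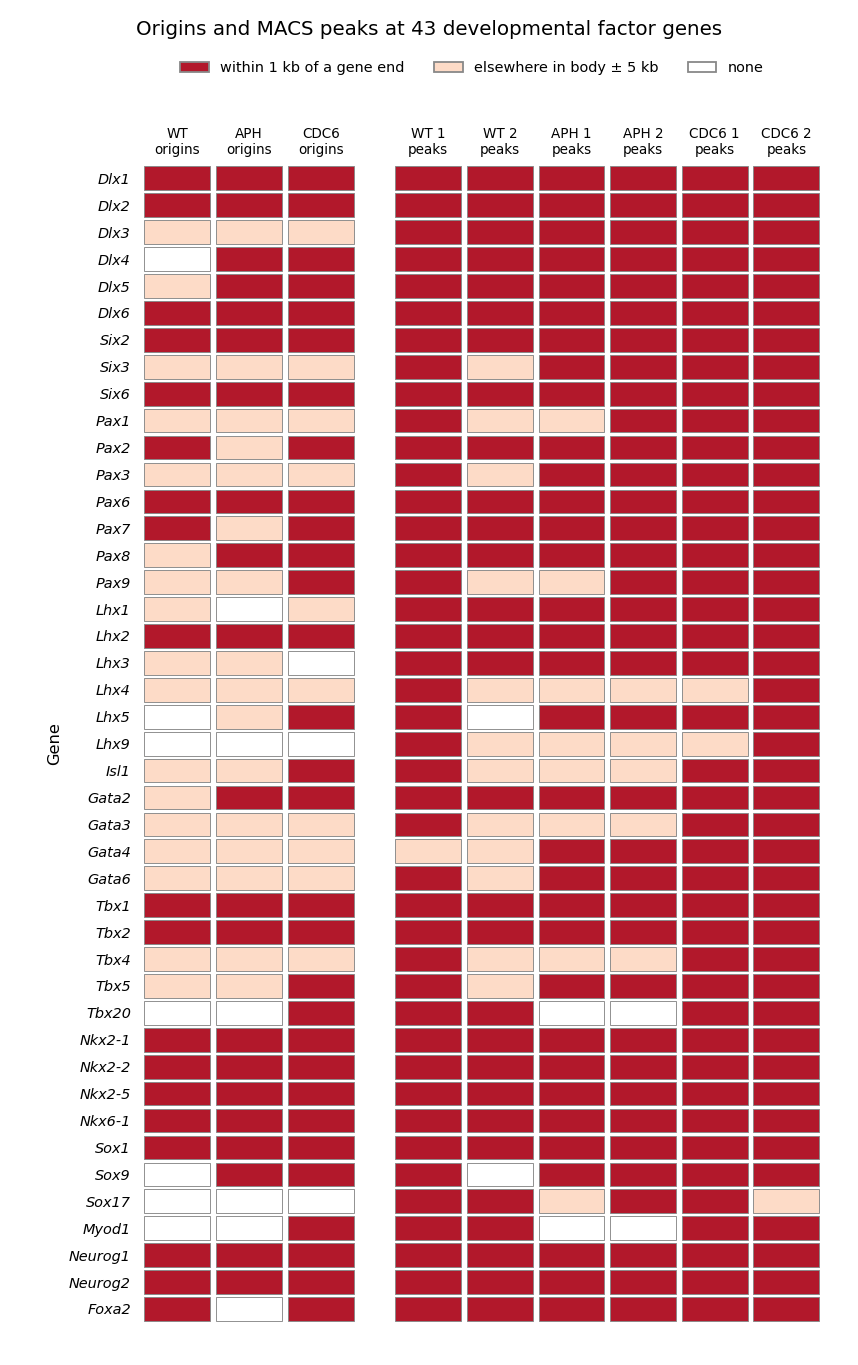
Each row is 1 of the 43 genes and each column a condition list of origins (left) or the MACS peaks of a library (right). Dark red marks an origin or peak within 1 kb of a gene end, pale red one elsewhere in the gene body or 5 kb flanks, and white none; the WT column has 19 dark cells, the APH column 21 and the CDC6 column 30, and WT 2 has the fewest dark cells of the libraries, 29.

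For 30 of the 43 genes a RefSeq promoter (GRCm38.p6) with its strand was matched by gene identifier. The stretches below are the 250 bases before the start site, written 5′ to 3′ in lower case with each CpG dinucleotide in capitals. The first set is shown because a CDC6 origin overlapped the promoter and no WT origin did, although a WT origin lay within 1 kb of the start at Pax2 and Pax7. It holds Pax2, Pax7 and Pax8, paired-box genes of kidney (Pax2, Pax8), thyroid (Pax8) and muscle progenitor (Pax7) development.

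Pax2, chr19:44755502-44755751, plus strand: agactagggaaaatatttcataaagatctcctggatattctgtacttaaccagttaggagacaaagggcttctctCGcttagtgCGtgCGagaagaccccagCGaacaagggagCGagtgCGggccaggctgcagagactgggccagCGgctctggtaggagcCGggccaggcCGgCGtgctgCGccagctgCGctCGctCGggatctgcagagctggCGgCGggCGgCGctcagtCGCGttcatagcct
Pax7, chr4:139832969-139833218, minus strand: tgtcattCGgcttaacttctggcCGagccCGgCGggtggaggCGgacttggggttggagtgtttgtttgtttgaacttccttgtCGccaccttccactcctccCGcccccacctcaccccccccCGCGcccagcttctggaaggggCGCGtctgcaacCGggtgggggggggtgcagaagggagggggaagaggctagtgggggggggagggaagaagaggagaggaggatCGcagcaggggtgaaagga
Pax8, chr2:24475600-24475849, minus strand: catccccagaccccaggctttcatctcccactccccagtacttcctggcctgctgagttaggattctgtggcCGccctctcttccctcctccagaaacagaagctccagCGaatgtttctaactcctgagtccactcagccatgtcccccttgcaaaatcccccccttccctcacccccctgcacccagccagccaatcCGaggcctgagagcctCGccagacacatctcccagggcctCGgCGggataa

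The second set is shown because origins of all 3 lists overlapped the promoter. It holds Nkx6-1, a factor of pancreatic beta cells and motor neurons, Sox1, a marker of neural progenitors, and Six2, which maintains kidney progenitors.

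Nkx6-1, chr5:101664712-101664961, minus strand: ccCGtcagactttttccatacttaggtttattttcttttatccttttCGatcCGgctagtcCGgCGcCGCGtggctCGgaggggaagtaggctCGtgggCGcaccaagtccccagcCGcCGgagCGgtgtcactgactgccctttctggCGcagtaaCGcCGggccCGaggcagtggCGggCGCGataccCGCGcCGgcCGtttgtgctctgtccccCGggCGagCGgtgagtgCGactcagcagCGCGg
Sox1, chr8:12395269-12395518, plus strand: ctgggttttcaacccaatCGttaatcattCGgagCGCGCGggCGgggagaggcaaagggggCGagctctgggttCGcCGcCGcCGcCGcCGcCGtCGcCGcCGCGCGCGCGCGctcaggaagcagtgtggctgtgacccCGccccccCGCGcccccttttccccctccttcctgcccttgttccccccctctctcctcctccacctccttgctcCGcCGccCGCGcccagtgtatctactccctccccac
Six2, chr17:85688255-85688504, minus strand: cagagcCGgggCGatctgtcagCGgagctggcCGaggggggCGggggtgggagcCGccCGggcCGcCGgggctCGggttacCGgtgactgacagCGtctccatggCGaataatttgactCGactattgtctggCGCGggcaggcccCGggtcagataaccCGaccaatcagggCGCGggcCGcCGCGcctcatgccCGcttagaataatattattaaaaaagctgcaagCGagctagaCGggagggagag

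In these 250 bases there were 20, 13 and 6 CpG dinucleotides at Pax2, Pax7 and Pax8, and 30, 29 and 26 at Nkx6-1, Sox1 and Six2. These 6 are examples, and the sets overlap over all promoters that meet the same rules. In the 300-base window, the 11 promoters with a CDC6 and no WT origin held a median of 22 CpG dinucleotides (7 at Pax8 to 37 at Isl1), and the 13 with origins of all 3 lists 29 (9 at Nkx2-5 to 40 at Nkx6-1). Most of the 11 are not free of WT origins nearby. At those of Pax1, Pax2, Pax7, Gata3 and Foxa2 a WT origin lay within 1 kb of the start. Pax2 has a further promoter in the table that origins of all 3 lists overlapped. The GC content of the printed promoters was 60.8%, 65.2% and 60.4% in the first set and 65.2%, 71.2% and 64.8% in the second. Only Pax7 of the first set lay within the range of the second. A run of 4 GGG blocks with 1 to 7 bases between them on either strand (CCC on the strand shown) lay in the printed promoters of Pax7, Pax8 and Sox1.

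Over the 300-base window from 250 before to 50 after the start, the 30 genes had a median GC content of 63.7%, against 56.5% for the 17274 protein-coding genes with a promoter in the table. Their median observed over expected CpG ratio was 0.717 against 0.573, and 23 of 30 (76.7%) reached a ratio of 0.6, against 47.9% of all genes. The 4-block GGG motif lay in 14 of 30 (46.7%), against 24.3% of all promoters. Within 1 kb of a start site, 18 of 30 (60.0%) had a WT origin, 17 (56.7%) an APH origin and 25 (83.3%) a CDC6 origin, against 32.5%, 32.8% and 40.2% of all genes. Promoters with a CpG ratio of at least 0.6 are a closer comparison. Among the 8269 such genes, 54.3% had a WT, 53.1% an APH and 64.8% a CDC6 origin at a start site, and among the 23 such developmental factors 65.2%, 60.9% and 82.6% did.

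The 18 genes with a start-site origin in both the WT and the CDC6 list had a median CpG ratio of 0.778 (0.466 to 1.179). The 7 with a CDC6 but no WT origin there, Pax8, Pax9, Isl1, Tbx4, Tbx20, Nkx2-1 and Nkx2-2, had 0.679 (0.288 to 1.054). The matched start of Nkx2-2 lies inside the gene, and at the 5′ end of that gene all 3 lists held an origin. The 5 with neither, Six3, Six6, Lhx1, Lhx3 and Lhx9, had 0.689 (0.261 to 0.961). The 3 ranges overlap over most of their length.

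**Figure D2:**
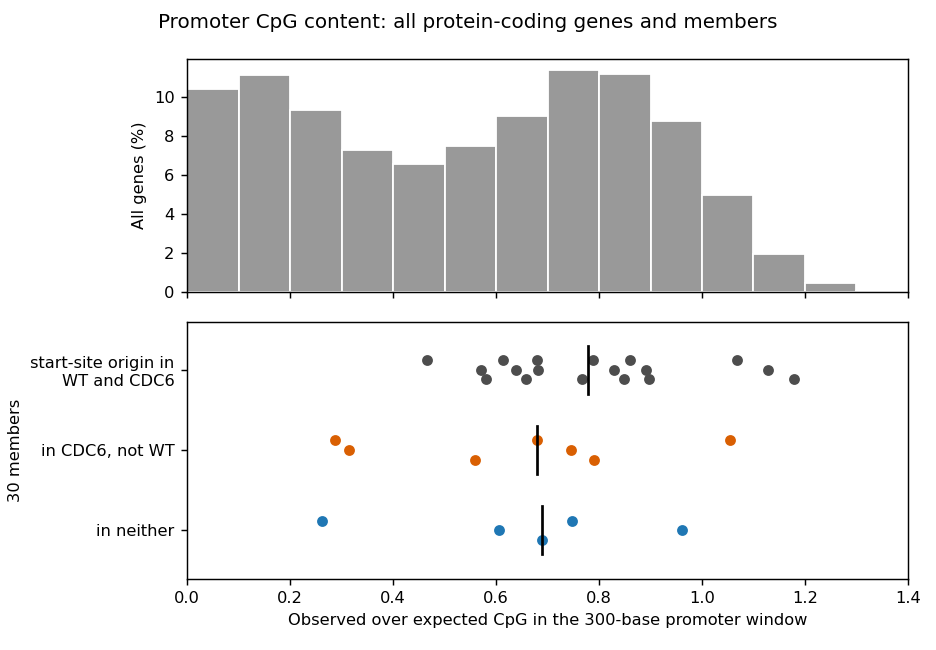
The upper panel shows the share of all 17274 genes by promoter CpG ratio (observed over expected CpG in 300 bases), and the lower panel the 30 developmental factors, 1 point each, by whether a WT or CDC6 origin lay within 1 kb of a start site. Vertical bars are medians (0.778, 0.679 and 0.689 from top to bottom), and the points of the 3 rows overlap.

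Distances from the start sites were measured for the same genes. Of the origins in the windows of these 30 genes, 17 of 46 in the WT list, 17 of 46 in the APH list and 27 of 62 in the CDC6 list had their midpoint within 1 kb of the nearest start site. The others lay farther off, and the median distances were 3082, 2411.5 and 2208.5 bp. In the CDC6 list 43 midpoints lay downstream of the start and 19 upstream, in WT 33 and 13, and in APH 31 and 15. Windows reach further downstream than upstream, since they hold the gene body, which favours that side.

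**Figure D3:**
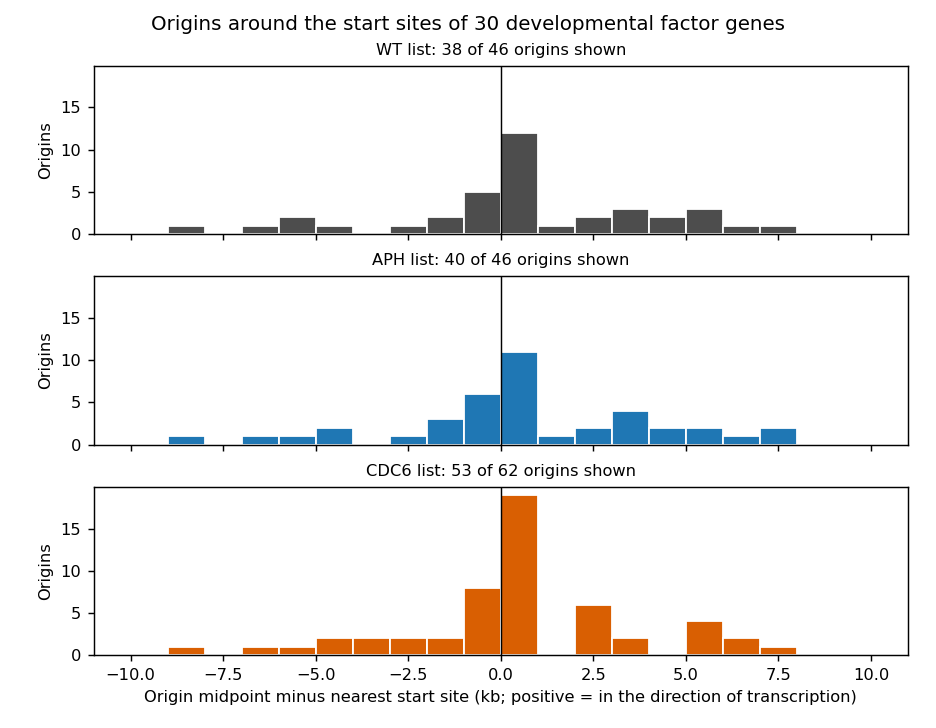
Number of origins per 1 kb of distance between the origin midpoint and the nearest start site, for the 30 genes with a RefSeq promoter; positive distances point in the direction of transcription. The bins next to the start are the tallest in each list, and the CDC6 list has 27 of 62 midpoints within 1 kb.

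Not all gene-end origins lay at starts. For genes with known strand, the WT list had 10 gene-end origins at the 5′ end, 5 at the 3′ end and 2 that reached both ends of a short gene. The APH list had 12, 5 and 1, and the CDC6 list 18, 6 and 1. At Six6, an eye and pituitary factor, the origins of all 3 lists lay at the 3′ end (in WT chromosome 12, 72944785 to 72946497). At the heart factor gene Nkx2-5 (WT chromosome 17, 26838930 to 26839818), at Tbx1, which forms the pharyngeal apparatus (WT chromosome 16, 18581377 to 18582762), and at Nkx2-1, a factor of thyroid and lung (WT chromosome 12, 56532852 to 56533508), an origin at the 3′ end was likewise in all 3 lists.

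The share with an origin at a gene end was compared between conditions to see at which genes the lists differ after aphidicolin or CDC6 induction. From the WT to the CDC6 list, 11 genes were added at gene ends and none was lost, against 10.4% and 1.95% of all protein-coding genes. The 11 were Dlx4, Dlx5, Pax8, Pax9, Lhx5, Isl1, Gata2, Tbx5, Tbx20, Sox9 and Myod1. They made up 11 of the 24 genes without a WT gene-end origin (45.8%), where 15.3% of all such genes were added. From the WT to the APH list 5 genes were added (Dlx4, Dlx5, Pax8, Gata2 and Sox9) and 3 were lost (Pax2, Pax7 and Foxa2), against 5.24% and 4.1% of all genes. Both comparisons use the same WT list. In the wider windows, 5 genes were added (Dlx4, Lhx5, Tbx20, Sox9 and Myod1) and 1 lost (Lhx3) from WT to CDC6, against 13.9% and 3.42% of all genes. From WT to APH, 3 were added (Dlx4, Lhx5 and Sox9) and 2 lost (Lhx1 and Foxa2), against 10.2% and 4.75%.

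These counts depended on which WT library was used. WT 1 had a MACS peak at a gene end of all 11 genes added in CDC6, whereas WT 2 had one at 6. Any overlap was counted, and some WT 1 peaks are wide, such as that at Gata2 (chromosome 6, 88193329 to 88206096). At the 11 CDC6 origins themselves, WT 1 and each CDC6 library had an overlapping peak at 11, WT 2 at 5, APH 1 at 7 and APH 2 at 8. With WT 1 alone as the WT side and sites shared by both CDC6 libraries on the other, 1 gene was added (Gata4), the only 1 of the 43 without a WT site there, against 1.66% of all genes. With WT 2 alone 12 were added, against 11.1% of all genes. Each list was also cut to the 20178 origins with the highest second deposited score, whose meaning is not stated. With these lists of equal length, 6 genes were added in CDC6 (14.0% of the 43, against 6.68% of all genes).

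Single libraries showed the same split within WT. A MACS peak at a gene end was found for 42 of 43 genes in WT 1 and for 29 in WT 2, for 33 and 36 in APH 1 and APH 2, and for 41 and 42 in CDC6 1 and CDC6 2. The shares of all protein-coding genes were 66.4%, 48.1%, 48.3%, 52.5%, 59.4% and 59.3% in the same order. Over the wider windows, 43 genes had a peak in WT 1, 41 in WT 2, 41 in each APH library and 43 in each CDC6 library, where all genes gave 82.3%, 74.8%, 74% and 74.9%, and 78.1% and 79.2%. At gene ends, with any overlap counted, the WT libraries thus spanned the whole range of the other 4, and the conditions overlapped. With at least 50% of a peak required inside the end window, WT 1 had 13 of the 43 genes, the fewest, and WT 2 had 19. In all 6 libraries 26 genes had a gene-end peak, against 39.5% of all genes, and 0 of the 43 had one in no library, against 27.2% of all genes.

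**Figure D4:**
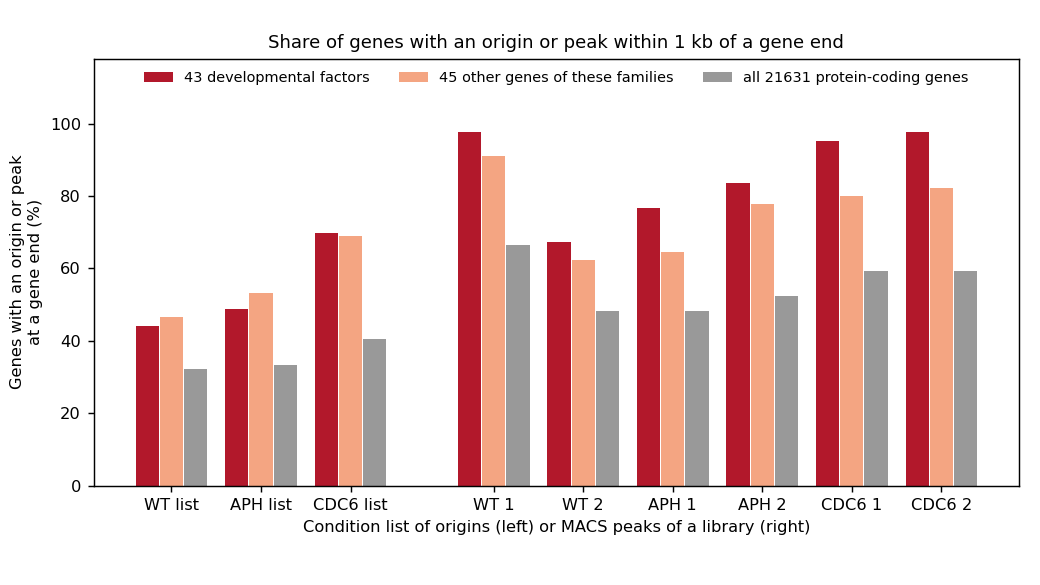
Bars give the percentage of genes with an origin (3 condition lists, left) or a MACS peak (6 libraries, right) within 1 kb of a gene end, for the 43 developmental factors, 45 other genes of their families and all 21631 protein-coding genes. For the 43 genes the CDC6 list stands highest of the lists at 69.8%, whereas the libraries run from 67.4% in WT 2 to 97.7% in WT 1 and CDC6 2.

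Gene-end peaks are described next by family, with the fold over the shared control that the authors gave the strongest peak. These folds come from lists called separately in each library, so they describe peaks and were not tested between conditions. WT 2 had low folds throughout, with a median of 2.43 over all its peaks against 2.51 to 2.73 in the other libraries. At the gene ends of the 43 its median was 2.84, against 3.38 to 3.59. A WT 2 fold below the rest is therefore not particular to a gene. The strongest peak can lie at different ends of a gene in different libraries, as it did at Dlx4, Lhx3, Isl1, Gata3, Tbx1 and Tbx5.

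The 6 Dlx genes, homeobox factors of forebrain interneurons, jaw and skin, lie in 3 pairs and had a gene-end peak in all 6 libraries. At Dlx6 the fold was 5.79 in WT 1, 3.75 in WT 2, 5.53 and 5.59 in APH and, in CDC6, 5.17 and 4.85. At its neighbour Dlx5 it was 2.69, 2.40, 3.62, 3.55, 3.01 and 3.53 in the same order, so both WT libraries were below the other 4. Dlx5 had an APH origin at chromosome 6, 6880809 to 6881508, and a CDC6 origin at 6880780 to 6881737, while its WT origin lay away from the gene ends. Dlx4 had 2.79, 2.87, 3.01, 3.20, 3.11 and 3.52 and no WT origin in its window. Its CDC6 origin (chromosome 11, 95145318 to 95146444) also overlapped the long noncoding RNA gene Dlx4os. Dlx1 and Dlx2 had gene-end origins in all 3 lists and Dlx3, on the same chromosome as Dlx4, in none.

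Of Six2, Six3 and Six6, homeobox factors of kidney, forebrain and eye, Six2 and Six6 had gene-end origins in all 3 lists. At Six6 the fold was 9.29 in WT 1, 5.79 in WT 2, 7.40 and 7.41 in APH and, in CDC6, 6.72 and 7.89. Its peaks ranked at or above the 97.5th percentile of each library by q-value, the highest mean rank of the 43 genes. At Six2 the fold was 3.99 and 4.57 in WT, 7.25 and 7.83 in APH and, in CDC6, 5.54 and 6.73. Both WT libraries were thus lowest there by fold, although all 3 lists held the origin. By percentile rank WT 1 was lowest at 92.9, but WT 2 at 97.9 stood above CDC6 1 at 96.4. Six3, which patterns the forebrain, had no gene-end origin and lacked a gene-end peak in WT 2.

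Among the Pax genes, Pax6, the eye regulator, had gene-end origins in all 3 lists and Pax1 and Pax3 in none. Pax8 had an APH origin (chromosome 2, 24475484 to 24476068) and a CDC6 origin (24475494 to 24476027) over the promoter printed above. Its fold of 2.91 and 2.43 in WT lay in the same range as 2.71 and 2.92 in APH and 2.55 and 2.70 in CDC6. Pax9, a factor of the vertebral column and teeth, had 2.44 in WT 1 and no peak in WT 2, none in APH 1 and 2.46 in APH 2 and, in CDC6, 2.82 and 3.24. Pax2 and Pax7 had a gene-end origin in the WT and CDC6 lists but not in the APH list, which held 5 and 1 origins elsewhere in their windows. Both had a gene-end peak in every library, with 6.08, 4.01, 4.47, 5.01, 4.43 and 4.38 at Pax2. At Pax7 the values were 3.45, 2.53, 2.78, 3.63, 3.33 and 3.57, and the conditions overlapped. The Pax2 origin lost from the list is at the 3′ end, and at a Pax2 start site all 3 lists held an origin.

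The LIM homeobox genes Lhx1, Lhx2, Lhx3, Lhx4, Lhx5 and Lhx9, with Isl1, act in brain, pituitary, gonad, heart and motor neurons. Only Lhx2 among these 7 had gene-end origins in all 3 lists, with folds of 5.70, 3.42, 5.01, 4.63, 3.95 and 4.40. Lhx5 had a fold of 2.53 in WT 1, none in WT 2, 2.24 and 3.23 in APH and, in CDC6, 3.15 and 3.68. The window of Lhx5 held no MACS peak of WT 2 at all, and its CDC6 origin lay at chromosome 5, 120432041 to 120432723. Isl1 had 2.83 in WT 1, no gene-end peak in WT 2 or either APH library, and 2.43 and 2.52 in CDC6, with a CDC6 origin at chromosome 13, 116309656 to 116310203. The WT 1 peak of 2.83 lay at the other end of the gene. At the CDC6 origin itself WT 1 had 2.17, below both CDC6 libraries. Lhx4 and Lhx9 had gene-end peaks in WT 1 and CDC6 2 alone, at 2.29 and 2.47 and at 2.79 and 2.52.

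The Gata genes described here, zinc finger factors of blood (Gata2, Gata3), heart and endoderm (Gata4, Gata6), had no gene-end origin in the WT list. Gata2 was in the APH and CDC6 lists, with folds of 3.54, 2.52, 2.52, 3.46, 4.11 and 4.01. Both CDC6 libraries were above the other 4 there. Gata3, Gata4 and Gata6 had origins within their windows in all 3 lists and none at a gene end. Gata6 had gene-end peaks nonetheless in 5 libraries, at 4.31 in WT 1, 4.20 and 4.51 in APH and, in CDC6, 4.72 and 5.11, and Gata3 in 3 libraries. Gata4 was the 1 gene without a gene-end peak in WT 1, and WT 2 lacked one as well; the fold was 3.15 and 3.19 in APH and, in CDC6, 2.28 and 2.82.

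Of the T-box genes described here, Tbx1 and Tbx2 had gene-end origins in all 3 lists. At Tbx2, a repressor that shapes the heart chambers, the fold was 4.39 and 3.42 in WT, 5.87 and 6.03 in APH and, in CDC6, 6.01 and 6.64, with WT below the rest. Tbx5, a factor of forelimb and heart, had 2.76 in WT 1, no peak in WT 2, 2.39 and 2.17 in APH and, in CDC6, 3.69 and 3.34; the APH 1 peak of 2.39 lay at the other end, and at the CDC6 origin APH 1 had 2.09. Tbx20, another heart factor, had 3.17 and 2.19 in WT, no peak in either APH library and, in CDC6, 3.20 and 3.18. Its CDC6 origin covered the start site (chromosome 9, 24773522 to 24774407). Tbx4, of the hindlimb, had window origins in all 3 lists and no gene-end origin.

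The 4 Nkx genes described here had gene-end origins in all 3 lists. At Nkx6-1 the APH libraries stood highest with 7.80 and 8.13, followed by CDC6 with 6.90 and 6.54 and WT with 5.57 and 4.76. At Nkx2-2, of the ventral neural tube, it was 3.76 and 2.68 in WT, 3.65 and 3.79 in APH and, in CDC6, 4.37 and 5.52.

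Among the Sox genes, Sox1 had 8.68 in WT 1, 3.83 in WT 2, 6.03 and 6.92 in APH and, in CDC6, 6.39 and 7.12. The WT libraries were the highest and the lowest of the 6. Sox1 lies on chromosome 8. WT 1 had 8.26% of its peaks on that chromosome, the remaining libraries 4.86% to 5.53%, and what part this has in the Sox1 value was not tested. Sox9, the cartilage factor, had 3.19 in WT 1, no peak in WT 2, 3.11 and 3.13 in APH and, in CDC6, 2.68 and 3.53, with no WT origin in its window. Sox17, of the endoderm, had no origin in any list, although 4 libraries had a gene-end peak of at most 3.09-fold.

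Among the remaining factors, Neurog1 and Neurog2, which start neurogenesis, had gene-end origins in all 3 lists. Myod1, the skeletal muscle regulator, had 3.37 and 2.07 in WT, no peak in APH and, in CDC6, 2.49 and 2.38. Its CDC6 origin (chromosome 7, 46378363 to 46378852) overlapped the gene and no WT 2 peak. Foxa2, a pioneer factor of endoderm and floor plate, had no APH origin in its window, yet every library had a gene-end peak, at 4.69 and 2.63 in WT, 2.67 and 2.75 in APH and, in CDC6, 3.16 and 3.80. In all 16 genes with gene-end origins in every list, the WT origin overlapped both an APH and a CDC6 origin. Some of these genes had a further gene-end origin that overlapped no WT origin, in the CDC6 list at Dlx2, Tbx1 and Nkx2-1 and in the APH list at Pax6, Tbx2 and Neurog2.

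**Figure D5:**
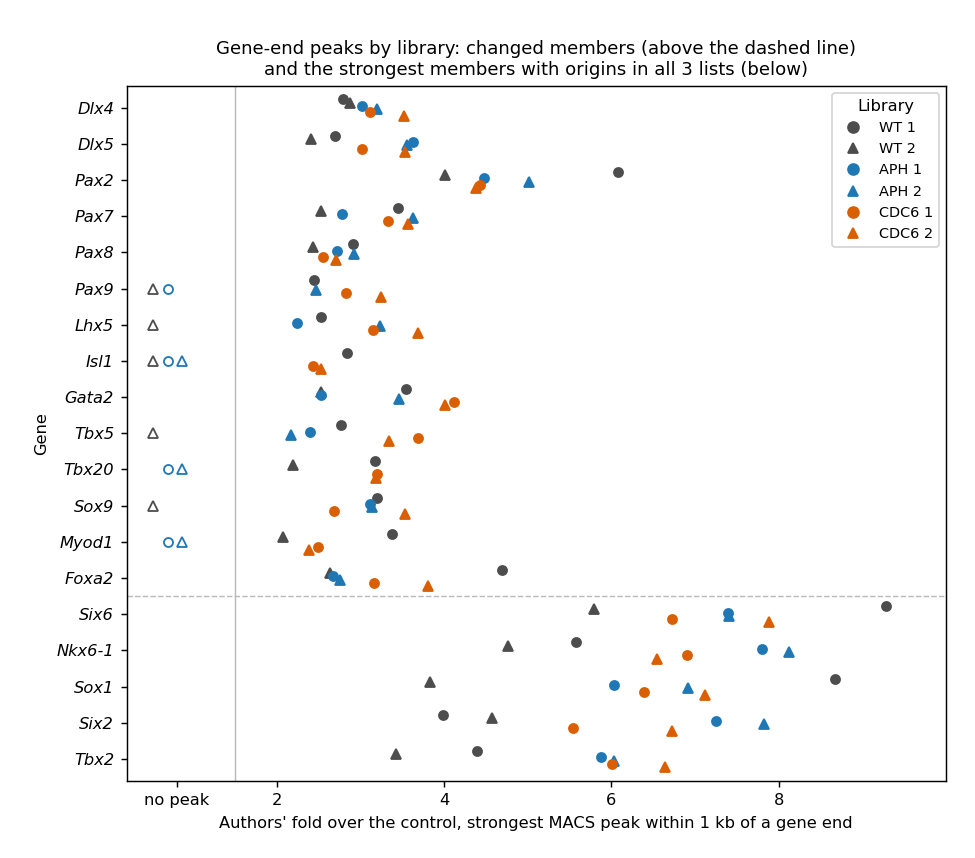
Fold over the control, as the authors gave it, of the strongest MACS peak within 1 kb of a gene end, for the 14 genes whose gene-end origin differed between lists (above the dashed line) and the 5 with the highest mean rank among those in all 3 lists (below). Colours are conditions, circles and triangles the first and second library, and open symbols at the left mark libraries without a peak; the 14 genes lie at or below 6.08 and open symbols occur for 7 of them.

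The number of MACS peaks in each window was compared between conditions in the 6 libraries, which is the replicated measure these files allow. It was scaled to the mean number of peaks per library and tested as log2(number + 1) with limma over 18329 genes that had a peak in at least 2 libraries, all 43 developmental factors among them. With Benjamini-Hochberg adjustment limma called 0 genes (0% of those tested) in each of the 3 contrasts. At an unadjusted p under 0.05 it had 1765 genes (9.63%) in APH minus WT, 1795 (9.79%) for CDC6 minus WT and 2209 (12.1%) between APH and CDC6, of which 3, 4 and 3 were among the 43. These shares of the 43 are near or below those of all genes. In that order, with APH minus CDC6 last, the median log2 difference of the 43 genes was 0.12, 0.16 and -0.15, against 0.00, 0.11 and -0.14 over all genes tested. With 2 libraries per group, 0 calls do not show that no gene differs, and wide peaks that merge several sites count as 1.

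The lowest p-values were at genes with few peaks. Myod1 had 1 peak in each WT and CDC6 library and 0 in both APH libraries. Its log2 difference was -0.93 ± 0.198 (SE, 2 libraries per group) in APH minus WT (limma adjusted p = 0.217) and -1.02 ± 0.198 in APH minus CDC6 (limma adjusted p = 0.198). Tbx20 had 4 and 1 peaks in WT, 0 and 0 in APH and, in CDC6, 2 and 2, and differed by -1.55 ± 0.391 in APH minus WT (limma adjusted p = 0.241) and -1.61 ± 0.391 in APH minus CDC6 (limma adjusted p = 0.25). At both genes the APH libraries lay below all others, by 1 peak at the least. The single WT 2 peak was weak, with −log10 q of 1.48 at Myod1 and 1.61 at Tbx20. With only peaks of −log10 q of at least 2, APH minus WT shrank to -0.437 at both genes. APH minus CDC6 was then -1.005 at Myod1 and -1.591 at Tbx20. Myod1 was called in both contrasts without scaling (limma adjusted p = 0.000516 and 0.000666, with 3.71% and 3.04% of all genes called). Unscaled, its counts were equal within each condition, so these small p-values come from tied counts with no spread. It was also called without the filter on genes with few peaks (limma adjusted p = 0.0154 and 0.0151, with 1.46% and 1.01% called). Each time it was the only 1 of the 43 called (2.33%). It was called in neither contrast with any other pseudocount, measure or peak threshold tried.

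Dlx1 had 3 and 2 peaks in WT and 1 in each of the other 4 libraries, with -0.63 ± 0.191 in APH minus WT (limma adjusted p = 0.365) and -0.67 ± 0.191 in CDC6 minus WT (limma adjusted p = 0.332). Dlx3 had 1 and 2 peaks in WT, 2 and 2 in APH and, in CDC6, 3 and 3, a difference of 0.81 ± 0.278 in CDC6 minus WT (limma adjusted p = 0.488). Nkx2-5 had 2 and 1 in WT, 1 and 1 in APH and, in CDC6, 2 and 3, with 0.62 ± 0.236 in CDC6 minus WT (limma adjusted p = 0.501) and -0.76 ± 0.236 in APH minus CDC6 (limma adjusted p = 0.32). None of these passed the threshold. With only peaks of −log10 q of at least 2, Dlx1 had -0.197 in APH minus WT and -0.239 in CDC6 minus WT. Dlx3 then had 1.031 and Nkx2-5 0.346 in CDC6 minus WT, and Nkx2-5 had -0.544 in APH minus CDC6. Without WT 1, which leaves only TetO-CDC6 cells, limma called 1540 genes in CDC6 minus WT (8.65% of those tested), with Dlx2, Lhx3, Lhx5 and Tbx4 among them (9.3% of the 43). In APH minus CDC6, Myod1 and Tbx20 (4.65% of the 43) were called without WT 1 (1084 genes in all, 6.09%) and without WT 2 (1086 genes, 6.03%). These shares of the 43 are near those of all genes, and in these fits the spread no longer includes a difference between WT libraries.

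A list of 45 other genes of the same families (such as Pax5, Gata1, Tbx3, Nkx2-3, Sox2 and Myf5) is given for comparison. At gene ends 21 of 45 (46.7%) had a WT origin, 24 (53.3%) an APH origin and 31 (68.9%) a CDC6 origin. From WT to CDC6 10 were added and 0 lost, and from WT to APH 5 were added and 2 lost. Of the 32 genes of polycomb complexes, the repressors known to bind such promoters (among them Ezh2, Suz12 and Rnf2), 27 had a WT, 25 an APH and 27 a CDC6 gene-end origin, with 2 added and 2 lost from WT to CDC6. The difference between these lists was not tested.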

How the data were processed

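The submitters' processing notes name MACS2 2.0.10, bedtools 2.23.0, BWA 0.7.10, Picard 1.107, SAMtools 0.1.19 and FastQC. Not given in the sources used here are their roles and settings, what the control was and how libraries were combined. MACS lists deposited by the authors give each peak a score, a fold ratio over 1 shared control, which the peak names give by a code, and −log10 p-values and q-values, in the column layout of MACS2; the files have no header line. The condition lists and second lists carry 2 deposited scores of unstated meaning. The ends of the genes used are those of RefSeq GRCm38.p6.

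Overlap meant at least 1 bp. A gene end reached 1 kb to either side of a gene's first or last base. Peaks per window were tested with limma 3.58.1 in R 4.3.3 (lmFit, eBayes with trend, pseudocount 1, all 3 conditions in 1 fit, threshold 0.05). The fit was tried first on simulated data in which only genes with many peaks were changed. That trial does not show how well differences are found at genes with few peaks, such as most described here. Percentages of all genes are descriptions; no set test was run. The Input sample was not used here.

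The 43 genes and both other gene lists were chosen with earlier results of these data known. Genes given with values in every library were those whose gene-end origin differed between lists, the 5 of highest mean peak rank among those in all 3 lists, and the 3 with the lowest limma p per comparison. Other family members named were chosen after their values were seen. Alternatives covered windows, overlap, q-value, list length, scaling, filter, pseudocount, covered bases, a replicate block and leaving out each library.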

Additional observations from a re-analysis of the deposited data

How the results depend on the processing

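The numbers of genes with an origin in the window stayed within 1.5 times the reported ones under each alternative, from 33 to 43. At gene ends, sites shared by the MACS peaks of both libraries gave 29 genes in WT and 33 in APH. Leaving out a library, so that all peaks of the other stand for its condition, gave 29 to 42 genes in WT, 33 to 36 in APH and 41 to 42 in CDC6; these lists are longer by construction. Genes added from WT to CDC6 numbered 6 with lists of equal length and 1 to 14 when 1 library was left out (1 without WT replicate 2). Genes lost from WT to CDC6 numbered 1 with gene ends of 2 kb, 1 with shared MACS sites, and 0 to 3 when 1 library was left out. From WT to APH, leaving out 1 library gave 1 to 9 added and 2 to 10 lost, with the extremes of 1 and 10 without WT replicate 2, and 9 without APH replicate 1.

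Gene-end peaks that lie in the window for at least 50% of their width were found for 13 (WT 1), 19 (WT 2), 21 (APH 1), 17 (APH 2), 18 (CDC6 1) and 20 (CDC6 2) genes, so that WT 1 then had the fewest. With −log10 q of at least 5 the number was 13 in WT 2 and 21 in APH 1.

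With limma, no scaling gave 680 calls in APH minus WT, 667 in CDC6 minus WT and 558 in APH minus CDC6, and no filter gave 316, 268 and 219; Myod1 was called in APH minus WT and in APH minus CDC6 under both. Leaving out 1 library gave 0 to 1540 calls in CDC6 minus WT and 0 to 1086 in APH minus CDC6, and 0 in each case in APH minus WT; the library that remains alone is assumed to vary like the other groups. The log2 difference of Dlx3 in CDC6 minus WT turned to -0.28 with covered bases. The cause was not tested. With a replicate block limma called 0 genes in each comparison. The deviations of same-numbered libraries from their group means correlated at -0.142 (WT and APH), 0.007 (WT and CDC6) and -0.068 (APH and CDC6), so the numbers do not pair the libraries.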
